A study of Mus musculus with 3 samples.

Results

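The receptors described here are 10 genes whose proteins let macrophages and related cells bind antibody, sugars, dying cells and microbes: the IgG receptor genes Fcgr1, Fcgr2b, Fcgr3 and Fcgr4, their signalling partner Fcer1g, the lectin genes Mrc1 and Siglec1, the uptake receptor Mertk, the brake on uptake Sirpa and the microbial sensor Tlr2. They were taken by name, although earlier results of these data were known when they were chosen. All 10 were found among the 3264 genes that had a value in every cell of a pooled single-cell matrix from mouse mitral valve. Its 3 listed samples hold mitral valves taken from mgR/mgR mice (B6.129-Fbn1tm2Rmz/J), which carry a hypomorphic allele of the fibrillin-1 gene Fbn1 on both chromosomes and were 12 weeks old according to the methods. The barcodes name neither mouse nor library nor genotype, so the matrix counts as 1 sample, no comparison between mice or genotypes could be made, and no p-value is given. The methods describe libraries both from sorted viable cells and from nuclei, and the barcodes were not tied to either kind, so "cells" covers both here.

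IgG bound to a target is read by Fc receptors on phagocytes. Activating receptors signal through the shared gamma chain, which carries an activation motif in its tail, while the inhibitory receptor carries an inhibitory motif in its own tail, and the balance between them sets whether a coated particle is engulfed and whether inflammatory genes follow. Resident macrophages of the heart and its valves are known for clearing dying cells and debris through receptors such as MERTK and the mannose receptor.

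The 16383 cells were assigned to groups by 3 gates on their UMIs. Ptprc cells (724, or 4.42%) had at least 1 UMI, a counted RNA molecule, of Ptprc, the gene of the leukocyte antigen CD45. Fibroblasts (3149) were cells without Egfl7 in which 2 or more of Prrx1, Col3a1 and Dpt, the 3 fibroblast genes used here, had a UMI. Endothelial cells (8966) had Egfl7, an endothelial secreted factor, and fewer than 2 of those genes, and 3781 cells met no gate. Median UMIs per cell were 5623, 6063 and 5366 in the groups in this order. The gates overlap: 163 Ptprc cells (22.5%) were also endothelial by these genes and 74 (10.2%) also fibroblasts. Levels, ratios and shares of the groups were therefore also taken with every cell in 1 gate only (470, 3075 and 8803 cells). The splits by Mrc1 and Il1b and the pairs of receptors below keep the Ptprc cells that met another gate. Total UMIs per cell ran from 503 to 23127 with a median of 5349. The names fall into 2 alphabetical runs of barcodes, of 14222 and 2161 cells, in which Ptprc cells made up 3.83% and 8.33%, and 11 barcodes, carried by 3 of the Ptprc cells, occurred in both runs. Genes on chromosomes 1, 2 and 3 make up nearly the whole matrix, so of 8 macrophage markers only Fcgr1 and Mrc1, both receptors described here, could be looked up, and the Ptprc cells could not be called macrophages from other genes. Of the broader leukocyte list beside the gate gene Ptprc, Spi1, Ctss, Cd44 and Slc11a1 were each at least 2-fold higher in Ptprc cells than in both other groups, and so were 5 of the 6 listed T and NK cell genes.

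All 10 receptors were higher in Ptprc cells than in fibroblasts and in endothelial cells by at least 2-fold. Among all genes with at least 50 UMIs over the groups compared, 16.7% were so against fibroblasts (2347 genes) and 17.7% against endothelial cells (2504 genes). The 7 receptors Fcgr1, Fcgr2b, Fcgr3, Fcgr4, Fcer1g, Mrc1 and Siglec1 were at least 10-fold higher against each group, a size that 5.33% and 5.99% of all genes reached. The median ratio of the 10 was 52.6 against fibroblasts and 36.7 against endothelial cells, beside 1.02 and 1.01 over all genes. Mertk, Sirpa and Tlr2 were the 3 with the smallest ratios in both comparisons. Levels below are UMIs of the gene per 10000 UMIs of the group, with 95% exact Poisson intervals that cover counting error only.

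**Figure D1:**
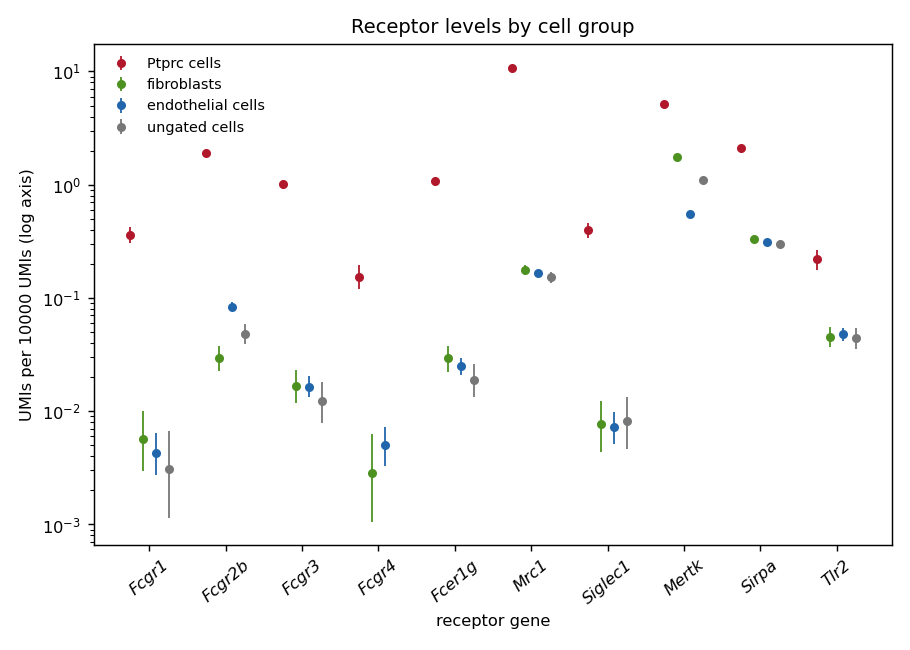
Level of each receptor (horizontal axis) as UMIs per 10000 UMIs on a log axis (vertical) in Ptprc cells, fibroblasts, endothelial cells and ungated cells; points are sums over all cells of a group and bars 95% exact Poisson intervals. Every receptor is highest in Ptprc cells, Mertk, Sirpa and Tlr2 lie closest to the other groups, and Fcgr4 has no point for ungated cells, where it had 0 UMIs.

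Among the IgG receptors, Fcgr1 encodes the high-affinity receptor CD64 and lies at chr3:96282909-96293969 on the minus strand (GRCm38, GENCODE M21, as are all gene positions here). Its level was 0.361 in Ptprc cells (0.307 to 0.422, 160 UMIs), 0.00574 in fibroblasts (12 UMIs) and 0.00428 in endothelial cells (23 UMIs). The ratios were 62.9 (35.0 to 124) and 84.5 (54.4 to 137), and the intervals of the groups lay far apart. With every cell in 1 gate only, 1 Fcgr1 UMI was left in fibroblasts and 5 in endothelial cells. Fcgr1 was thus close to absent from valve cells that carried no Ptprc: of the 122 cells with a UMI, 91.0% were Ptprc cells.

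Fcgr3 (chr1:171051174-171064935, minus strand) and Fcgr4 (chr1:171018920-171029761, plus strand) encode activating receptors for IgG complexes. Fcgr3 had a level of 1.01 in Ptprc cells (0.922 to 1.11), 0.0167 in fibroblasts and 0.0165 in endothelial cells, ratios of 60.5 (42.9 to 88.0) and 61.3 (48.7 to 77.8). Fcgr4 was sparse, with 68 UMIs in 49 Ptprc cells, a level of 0.154 (0.119 to 0.195), against 0.00287 in fibroblasts and 0.00502 in endothelial cells. Its ratios of 53.5 (23.3 to 151) and 30.6 (19.3 to 49.7) are therefore wide. In ungated cells Fcgr4 had 0 UMIs, which the 95% interval puts at no more than 0.00189. Fcer1g (chr1:171229572-171234365, minus strand), the gamma chain that Fcgr1, Fcgr3 and Fcgr4 need to signal, had a level of 1.08 (0.982 to 1.18) in Ptprc cells, 0.0292 in fibroblasts and 0.0251 in endothelial cells. Outside the Ptprc cells it was found in 139 cells, none with more than 2 UMIs, against 11 for Fcgr1, 38 for Fcgr3 and 8 for Fcgr4.

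Fcgr2b (chr1:170958617-170976547, minus strand) encodes the inhibitory IgG receptor and departed from its family in endothelial cells. Its level was 1.91 in Ptprc cells (1.78 to 2.04), 0.0297 in fibroblasts (0.0227 to 0.0380) and 0.0840 in endothelial cells (0.0765 to 0.0922). Fibroblasts thus held 0.353 times the endothelial level (0.266 to 0.461), whereas for Fcgr1, Fcgr3, Fcgr4 and Fcer1g the interval of that ratio included 1. With every cell in 1 gate only, Fcer1g was higher in fibroblasts, 1.53 times the endothelial level (1.02 to 2.27), while the intervals for Fcgr1, Fcgr3 and Fcgr4 still included 1. With Ptprc cells taken out in this way, 302 Fcgr2b UMIs remained in endothelial cells and 24 in fibroblasts, a ratio of 0.206 (0.130 to 0.312), while Fcgr3 kept 14 and 11. Fcgr2b is known from endothelium of liver sinusoids, where it removes immune complexes. The 232 endothelial cells with Fcgr2b and without Ptprc had 0 UMIs of Spi1, the gene of the leukocyte factor PU.1, at a 95% upper limit of 0.0242, and 3 of Ctss, a lysosomal protease gene of phagocytes, a level of 0.0197 (0.00406 to 0.0576). Endothelial cells with neither Fcgr2b nor Ptprc had a Ctss level of 0.0161 (0.0128 to 0.02), so the intervals overlapped. With 3 and 0 UMIs these are wide, and the part of leukocyte RNA in the endothelial Fcgr2b was not tested further.

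Endothelial Fcgr2b was uneven over the clusters, which were made without the receptors and gate genes. Among endothelial cells without Ptprc, its level was 0.104 (0.0855 to 0.124) in cluster 4, led by genes such as Selp and Fmo2, and 0.127 (0.100 to 0.158) in cluster 5, led by Frem2 and Kcnh1. In cluster 2, which holds Prox1 among its leading genes, the level was 0.0486 (0.0380 to 0.0611). In cluster 3, led by Prnd, it was 0.0132 (0.00770 to 0.0212), and in cluster 7 it was 0 in 475 cells, at most 0.00863. Cluster 9, led by Lcn2 and Sox18, was at 0.0939 (0.0547 to 0.150) in 228 cells, 213 of them of the second run, and cluster 1 at 0.02 (0.00243 to 0.0724) on 2 UMIs. Clusters 4, 5 and 9 did not differ beyond their intervals. Clusters 4 and 5 lay above clusters 2 and 3 with no overlap, and cluster 9 above cluster 3 but not beyond the interval of cluster 2. In the first barcode run the levels were 0.110, 0.120, 0.0557 and 0.0151 in clusters 4, 5, 2 and 3, and in the second 0.0790, 0.190, 0.0240 and 0, which keeps clusters 4 and 5 above 2 and 3 in each run. Thinned to 2000 UMIs per cell, 3.70% of the cluster 9 endothelial cells (1.61 to 7.17), 2.18% of those in cluster 4 (1.57 to 2.93) and 0.255% of those in cluster 3 (0.0830 to 0.595) had an Fcgr2b UMI.

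Mrc1 (chr2:14229392-14332057, plus strand), the gene of the mannose receptor CD206, had a level of 10.7 (10.4 to 11) in Ptprc cells, 0.178 (0.161 to 0.197) in fibroblasts and 0.167 (0.156 to 0.178) in endothelial cells. The ratios were 59.9 (53.9 to 66.7) and 64.1 (59.7 to 68.9). A Ptprc cell with Mrc1 had a median of 8 UMIs and at most 80, and 10.7% of such cells had a single one. With every cell in 1 gate only the ratios rose to 495 (384 to 649) and 611 (512 to 734), since 61 of the 373 fibroblast UMIs and 128 of the 896 endothelial UMIs lay in cells without Ptprc. Most of the Mrc1 in the other gates was therefore in cells that also met the Ptprc gate. Siglec1 (chr2:131069220-131086765, minus strand), the sialic acid receptor CD169 of resident macrophages, had a level of 0.395 (0.339 to 0.458) in Ptprc cells, 0.00765 in fibroblasts and 0.00725 in endothelial cells. Its ratios of 51.6 (30.9 to 92.3) and 54.5 (38.3 to 79.2) rose to 185 (82.9 to 514) and 319.7 (163 to 714) in the same way, on 6 and 9 UMIs.

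Mertk (chr2:128698956-128802894, plus strand) encodes a receptor tyrosine kinase that recognises dying cells through bridging proteins, and it was expressed well beyond the Ptprc cells. Its level was 5.20 (4.99 to 5.42) in Ptprc cells, 1.77 (1.72 to 1.83) in fibroblasts, 0.552 (0.533 to 0.573) in endothelial cells and 1.10 (1.06 to 1.15) in ungated cells, so no 2 of the groups overlapped. Ptprc cells were 2.93 times above fibroblasts (2.78 to 3.09) and 9.41 times above endothelial cells (8.91 to 9.94), and fibroblasts 3.21 times above endothelial cells (3.06 to 3.37). The last ratio was 3.39 (3.22 to 3.57) in the first barcode run and 1.69 (1.44 to 1.99) in the second, where the fibroblast level was 0.951 (0.825 to 1.09) against 1.87 (1.80 to 1.93) in the first. Only 11% of the 4187 cells with Mertk and 22.0% of its UMIs belonged to Ptprc cells. With every cell in 1 gate only, fibroblasts still held 3470 UMIs and lay 3.52 times above endothelial cells (3.34 to 3.70). In the 1232 fibroblasts with Mertk and without Ptprc, the Mrc1 level was 0.0295 (0.0194 to 0.0429) and the Ctss level 0.0273 (0.0177 to 0.0403). In the 1843 without either, Mrc1 was at 0.0305 (0.0211 to 0.0426) and Ctss at 0.0269 (0.0182 to 0.0384), so these levels did not differ beyond their intervals. Spi1 had 9 UMIs with Mertk, a level of 0.00983 (0.00450 to 0.0187), and 2 without, 0.00179 (0.000217 to 0.00648). Its point value was thus higher with Mertk. The intervals overlap, but no interval of the ratio was taken, so a difference in Spi1 is not excluded. Of Mrc1, Ctss and Spi1, only Mrc1 differed beyond its intervals in endothelial cells. Those with Mertk and without Ptprc (1494) had Mrc1 at 0.0491 (0.0367 to 0.0644), against 0.0181 (0.0143 to 0.0227) in the 7309 without either. Their Ctss levels were 0.0123 (0.00654 to 0.0210) and 0.0172 (0.0134 to 0.0216), which overlap. The Spi1 levels, 0.00378 (0.00103 to 0.00968) and 0.00429 (0.00254 to 0.00678), overlap as well. Between the same endothelial cells, Egfl7 was lower with Mertk, at 6.25 (6.10 to 6.41) against 7.51 (7.43 to 7.60). Col3a1 was higher, at 0.740 (0.689 to 0.794) against 0.652 (0.628 to 0.677).

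Within the fibroblasts without Ptprc, Mertk was 2.08 (2.01 to 2.15) in cluster 1 and 0.656 (0.588 to 0.730) in cluster 6, whose leading genes include Pax1 and Scn7a. At the finer Leiden resolution of 1.0, cluster 6, led by Sphkap and also by Fmod, the gene of the matrix proteoglycan fibromodulin, had a Mertk level of 3.55 (3.39 to 3.71) in 731 fibroblasts, against 1.26 (1.19 to 1.34) in cluster 4 and 0.666 (0.598 to 0.739) in cluster 7. Thinned to 2000 UMIs, 39.0% (35.4 to 42.6) of those 731 had a Mertk UMI, against 19.2% (17.2 to 21.4) and 10.2% (8.19 to 12.6). The order was the same in each barcode run, at 3.62, 1.31 and 0.689 in the first and 1.76, 0.942 and 0.469 in the second, where cluster 6 had 27 cells.

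Sirpa (chr2:129592835-129632228, plus strand), whose protein binds CD47 and restrains engulfment, and Tlr2 (chr3:83836272-83841767, minus strand), a sensor of bacterial lipoproteins, were also found in every group. Sirpa was at 2.11 (1.97 to 2.25) in Ptprc cells, 0.331 (0.306 to 0.356) in fibroblasts and 0.315 (0.300 to 0.330) in endothelial cells, ratios of 6.37 (5.77 to 7.04) and 6.70 (6.17 to 7.26). Fibroblasts and endothelial cells did not differ beyond their intervals, although in the first run alone fibroblasts were at 1.12 times the endothelial level (1.02 to 1.24). Tlr2 was at 0.219 (0.178 to 0.267), 0.0454 (0.0368 to 0.0555) and 0.0476 (0.0419 to 0.0538), ratios of 4.82 (3.59 to 6.46) and 4.60 (3.60 to 5.83), and again the latter groups overlapped. By run the Tlr2 ratio to fibroblasts was 3.52 (2.46 to 4.98) and 15 (5.95 to 48.5), and in the second run fibroblasts, with 5 UMIs, were at 0.352 times the endothelial level (0.111 to 0.861). Fibroblasts with Sirpa and without Ptprc (479) had Mrc1 at 0.0660 (0.0427 to 0.0974), against 0.0218 (0.0153 to 0.0302) in the 2596 without either. Between the same cells the intervals of Ctss overlapped, at 0.0396 (0.0222 to 0.0653) and 0.0242 (0.0173 to 0.0330). So did those of Spi1, at 0.0132 (0.00429 to 0.0308) and 0.00363 (0.00133 to 0.00791). Of the cells with a Tlr2 UMI, 16.6% were Ptprc cells. With every cell in 1 gate only the ratios to fibroblasts and endothelial cells were 9.26 and 9.72 for Sirpa and 6.98 and 6.82 for Tlr2.

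The starts of the genes are shown for the 4 receptors whose promoter window held the core of the PU.1 site, GAGGAA read on either strand, and for Mertk, the receptor with the highest level in fibroblasts. The windows run from 250 bases before to 50 bases after the start in RefSeq (GRCm38.p6), written 5′ to 3′ on the gene's strand, with capitals marking the core or its reverse complement. A window was held for 8 of the 10 receptors, not for Siglec1 or Sirpa, and the first of 2 starts is printed for Fcgr3.
Fcgr1, chr3:96293920-96294219, minus strand: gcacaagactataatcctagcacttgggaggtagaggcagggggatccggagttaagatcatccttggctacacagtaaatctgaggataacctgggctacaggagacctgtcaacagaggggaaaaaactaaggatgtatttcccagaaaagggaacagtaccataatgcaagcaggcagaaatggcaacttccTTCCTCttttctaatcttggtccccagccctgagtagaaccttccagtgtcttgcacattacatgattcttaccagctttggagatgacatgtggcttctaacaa
Fcgr3, chr1:171059354-171059653, minus strand: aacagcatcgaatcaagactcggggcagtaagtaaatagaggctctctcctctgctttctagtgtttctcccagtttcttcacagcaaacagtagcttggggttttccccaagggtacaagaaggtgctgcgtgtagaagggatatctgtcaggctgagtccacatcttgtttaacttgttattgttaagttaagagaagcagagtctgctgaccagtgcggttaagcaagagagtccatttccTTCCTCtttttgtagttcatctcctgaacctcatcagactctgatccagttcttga
Fcgr4, chr1:171018676-171018975, plus strand: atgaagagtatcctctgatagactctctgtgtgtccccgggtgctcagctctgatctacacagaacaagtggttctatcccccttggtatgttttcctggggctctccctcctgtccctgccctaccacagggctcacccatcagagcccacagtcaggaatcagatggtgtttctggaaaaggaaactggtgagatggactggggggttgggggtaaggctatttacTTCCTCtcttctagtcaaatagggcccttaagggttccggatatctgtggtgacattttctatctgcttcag
Mrc1, chr2:14229164-14229463, plus strand: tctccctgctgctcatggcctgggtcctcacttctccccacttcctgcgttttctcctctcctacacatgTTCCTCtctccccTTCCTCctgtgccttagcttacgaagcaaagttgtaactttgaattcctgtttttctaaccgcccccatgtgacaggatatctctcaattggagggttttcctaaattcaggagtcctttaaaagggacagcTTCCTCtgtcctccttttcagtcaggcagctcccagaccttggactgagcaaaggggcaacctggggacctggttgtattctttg
Mertk, chr2:128698665-128698964, plus strand: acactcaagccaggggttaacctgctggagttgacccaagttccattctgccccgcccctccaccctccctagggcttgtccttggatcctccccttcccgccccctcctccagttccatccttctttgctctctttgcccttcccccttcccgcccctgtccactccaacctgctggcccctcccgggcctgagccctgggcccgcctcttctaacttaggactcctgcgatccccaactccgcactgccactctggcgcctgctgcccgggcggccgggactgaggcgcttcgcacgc
The core began 55 bases before the start in Fcgr1, 6 in Fcgr3, 22 in Fcgr4 and 180, 167 and 35 in Mrc1. It was found in 4 of the 8 receptors and in 28.3% of 32851 promoter windows of the same 300 bases, and not in those of Fcgr2b, Fcer1g, Mertk and Tlr2. The gamma-activated site TTCNNNGAA was found in Fcgr1, 109 bases before its start, and in 8.30% of all windows. The AP-1 site, TGAGTCA or TGACTCA, was in 0 of the 8 and in 5.20% of all windows. These are matches of letters and were not tested for binding.

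Cells with a receptor were counted after drawing 2000 UMIs from each cell, which left out 58 Ptprc cells, 92 fibroblasts and 563 endothelial cells with fewer. At that depth 75.8% of the 666 Ptprc cells (72.4 to 79.0, 95% exact binomial interval) had at least 1 UMI of at least 1 receptor, against 28.6% of fibroblasts (27 to 30.2) and 16.6% of endothelial cells (15.8 to 17.4). Without Sirpa, Mertk and Tlr2 the shares were 65.5% (61.7 to 69.1), 2.55% (2.02 to 3.17) and 3% (2.64 to 3.39), so those 3 genes made up most of what the other groups showed. Without thinning, 85.4% of all 724 Ptprc cells had a receptor UMI. Receptors came in combination: 59.8% of Ptprc cells had at least 2 of the 10, 40.1% at least 3 and 7.81% at least 5, up to 7 in a cell. Fibroblasts and endothelial cells had at least 2 in 3.17% and 1.81%.

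**Figure D2:**
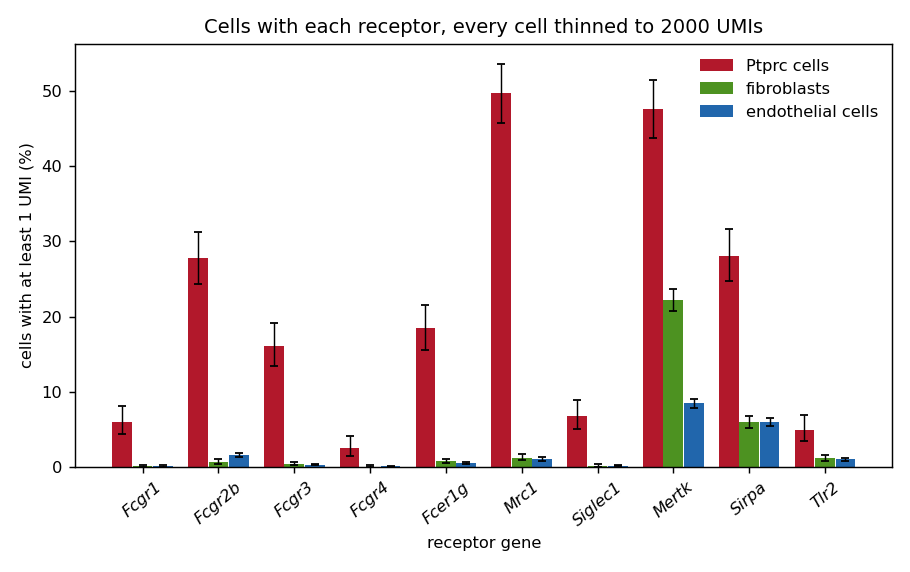
Share of cells with at least 1 UMI (vertical axis, %) of each receptor in Ptprc cells, fibroblasts and endothelial cells after thinning every cell to 2000 UMIs; bars start at 0 and error bars are 95% exact binomial intervals. Ptprc cells reach 49.7% for Mrc1 and 47.6% for Mertk, and in the other groups only Mertk and Sirpa exceed 5%.

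Gene by gene at this depth, Mrc1 was found in 49.7% of Ptprc cells (45.8 to 53.6), 1.24% of fibroblasts and 1.02% of endothelial cells, and Mertk in 47.6% (43.7 to 51.5), 22.2% (20.7 to 23.7) and 8.47% (7.89 to 9.09). Sirpa was found in 28.1%, 5.92% and 5.94% of the groups in the same order, and Fcgr2b in 27.8%, 0.687% and 1.59%. Fcer1g and Fcgr3 were in 18.5% and 16.1% of Ptprc cells. Siglec1, Fcgr1, Tlr2 and Fcgr4 were in 6.76%, 6.01%, 4.95% and 2.55%, and unthinned in 15.3%, 15.3%, 10.4% and 6.77%, so a cell without a UMI of these genes cannot be called negative. In fibroblasts and endothelial cells, Fcgr1, Fcgr3, Fcgr4, Fcer1g and Siglec1 were each in under 1% of cells.

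Within the Ptprc cells the receptors were then read against Mrc1, of which 331 cells had a UMI at 2000 UMIs and 335 had none. Of the cells with Mrc1, 92.4% (89.1 to 95.1) had at least 1 of the other 9 receptors, and of those without it 51.9% (46.4 to 57.4), a difference of 40.5 percentage points (34.2 to 46.4, Newcombe interval). The difference was 40 in the first barcode run and 41.9 in the second. Of the 8 receptors that were in at least 20 cells, 5 were at least 2 times as frequent with Mrc1, namely Fcgr1, Fcgr3, Fcer1g, Siglec1 and Mertk. Over all genes tested that way 5.51% were. In the second run alone Fcgr1 was in 6.49% of cells with Mrc1 and 4.21% of those without, a difference of 2.28 points (-4.86 to 10.5), and Siglec1 in 3 cells and 0, 3.90 points (-0.759 to 10.8), against 7.34 and 12.5 points in the first. Fcgr3, Fcer1g and Mertk had intervals above 0 in both runs.

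Siglec1 had the largest ratio between cells with and without Mrc1. It was found in 12.1% of Ptprc cells with Mrc1 and 1.49% of those without, and 88.9% of the 45 cells with Siglec1 also had Mrc1. Unthinned, its level was 0.633 with Mrc1 and 0.0341 without, 18.6-fold (8.36 to 51.4). Mertk was in 70.1% and 25.4%, with levels of 7.52 and 1.67, a ratio of 4.49 (3.97 to 5.09). Fcgr3 was in 23.9% and 8.36%, with levels of 1.41 and 0.420, a ratio of 3.34 (2.60 to 4.35). Fcgr1, Fcgr2b, Fcer1g and Sirpa had level ratios between 1.94 and 2.27, each with an interval above 1. By run these were 2.20 and 2.25 for Fcgr1 and 2.32 and 1.93 for Fcgr2b. For Fcer1g they were 3.41 (2.43 to 4.90) and 1.35 (1.01 to 1.81), and for Sirpa 2.70 (2.22 to 3.31) and 1.38 (1.06 to 1.79). In share of cells, the Sirpa difference in the second run was 6.40 points (-7.24 to 20.1). Fcgr4 was the exception, in 2.42% of cells with Mrc1 and 2.69% of cells without, a difference of -0.270 points (-2.89 to 2.34), at levels of 0.157 and 0.148. By run the signs were opposite, on few cells: -2.15 points in the first (3 cells with Mrc1 and 8 without, -5.35 to 0.615) and 5.44 in the second (5 and 1, -0.511 to 13.3). For Tlr2 the difference of 2.76 points also had an interval that included 0 (-0.596 to 6.27).

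Other cell markers moved with this split. Summed over the 6 listed T and NK cell genes the level was 0.127 in Ptprc cells with Mrc1 and 1.87 in those without, with Xcl1 at 0 in both. The 3 fibroblast genes summed to 1.37 and 3.05, and Egfl7 was at 0.806 and 2.17. Among Ptprc cells without a UMI of the T and NK genes the difference in the share with another receptor was 36.7 points (30 to 43.1), and among the Ptprc cells of cluster 8, described below, 28.8 points (21.7 to 35.9). The part of doublets and free RNA in the remainder was not tested.

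**Figure D3:**
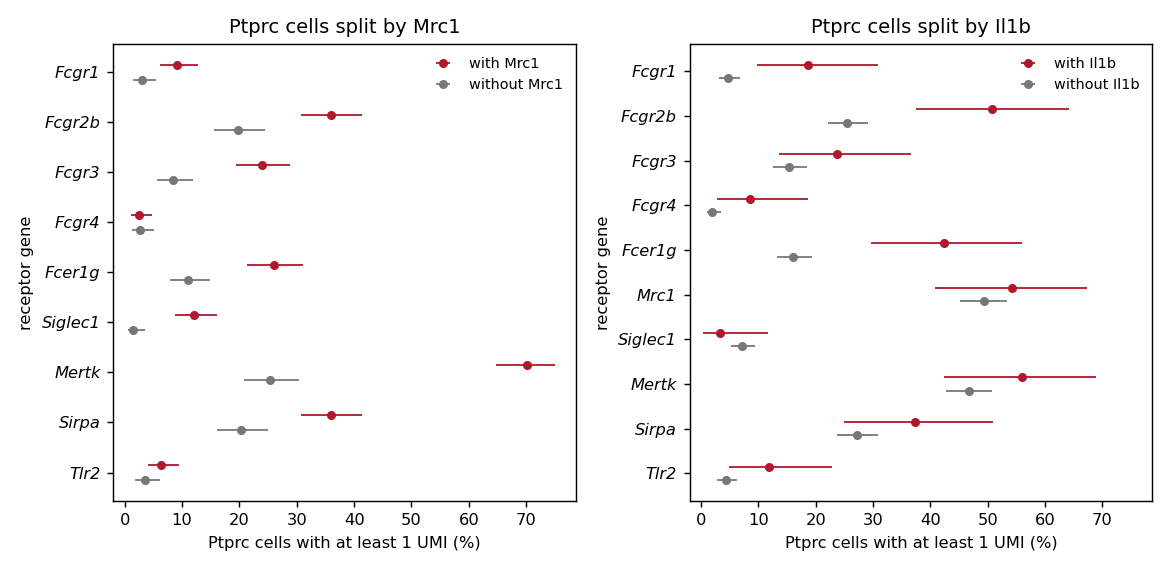
Share of Ptprc cells (horizontal axis, %) with at least 1 UMI of each receptor (vertical axis), split by Mrc1 (left panel) and by Il1b (right panel), at 2000 UMIs per cell; points are shares and bars 95% exact binomial intervals. With Mrc1 the intervals for Siglec1, Mertk, Fcgr3, Fcer1g, Fcgr1, Fcgr2b and Sirpa lie apart from those without it. Those for Tlr2 overlap and the points for Fcgr4 nearly coincide. With Il1b the widest gaps are those of Fcer1g and Fcgr2b.

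Il1b (chr2:129364570-129371139, minus strand), the gene of the inflammatory cytokine interleukin-1 beta, was found in 59 of the 666 thinned Ptprc cells. Of these 96.6% (88.3 to 99.6) had at least 1 of the 10 receptors, against 73.8% (70.1 to 77.3) of the 607 without Il1b, a difference of 22.8 points (14.0 to 27.2). It was 16.8 points in the first run (0.412 to 23.5, 27 cells with Il1b), 32.9 in the second (19.9 to 41.0, 32 cells), 13.5 (7.42 to 17.2) without thinning and 12.1 (3.44 to 16.5) among the Ptprc cells of cluster 8, so its size depended on which cells were counted. Of the 9 receptors in at least 20 cells, 3 were at least 2 times as frequent with Il1b, namely Fcgr1, Fcer1g and Tlr2, and 5.30% of all genes tested were.

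Fcer1g was in 42.4% of Ptprc cells with Il1b and 16.1% of those without, a difference of 26.2 points (14.1 to 39.2), with levels of 2.51 and 0.836. In the first run alone the Fcer1g difference was 9.65 points (-3.61 to 28.7) and in the second 40.5 (22.2 to 56.9). Fcgr2b was in 50.8% and 25.5%, Fcgr1 in 18.6% and 4.78%, and Tlr2 in 11.9% and 4.28%, each with an interval of the difference above 0. For Fcgr3 the difference of 8.41 points had an interval that included 0 (-1.14 to 20.9). In level, Mertk and Sirpa were also higher with Il1b, by 1.33-fold (1.20 to 1.48) and 1.49-fold (1.26 to 1.75). Fcgr4 had a level of 0.392 with Il1b and 0.113 without, a ratio of 3.45 (2.02 to 5.78), and its share of 8.47% rested on 5 cells. Mrc1 and Siglec1 went the other way in level: Mrc1 was at 6.77 with Il1b and 11.3 without, 0.597-fold (0.539 to 0.659), and Siglec1 at 0.204 and 0.427, 0.477-fold (0.248 to 0.838). Cells with Il1b made up 49 of the 544 unthinned Ptprc cells of the first run and 51 of the 180 of the second, so these ratios were also taken within runs. For Mrc1 they were 0.591 (0.512 to 0.680) and 0.798 (0.683 to 0.929), and for Siglec1 0.498 (0.196 to 1.05) and 0.755 (0.248 to 1.95), whose intervals include 1. For Fcer1g they were 1.49 (1.01 to 2.13) and 3.93 (2.95 to 5.27), and for Fcgr4 5.19 (2.77 to 9.42) and 2.20 (0.680 to 6.95). The shares of cells with Mrc1, 54.2% and 49.3%, did not differ beyond their interval, so the Mrc1 level was lower without fewer cells having it. Ptprc itself was at 19.6 with Il1b and 10.3 without, and the T and NK genes summed to 0.329 and 0.905. The 3 fibroblast genes summed to 0.689 with Il1b and 2.27 without, and Egfl7 was at 0.580 and 1.48. The part of doublets and free RNA in the split by Il1b was not tested.

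Split by both genes without thinning, 66 Ptprc cells had Mrc1 and Il1b, 347 Mrc1 only, 34 Il1b only and 277 neither. Fcer1g was highest in the Il1b-only cells, at 3.75 (2.95 to 4.71), followed by 1.95 (1.56 to 2.41) with both, 1.21 (1.07 to 1.37) with Mrc1 only and 0.301 (0.221 to 0.400) with neither, and no neighbours in that order overlapped. This order came from the second run, where the Il1b-only cells (19) were at 5.27 (4.12 to 6.65), while the 15 of the first run were at 0.480 (0.0990 to 1.40) on 3 UMIs. Siglec1 had its highest level with Mrc1 only, 0.705 (0.599 to 0.824), then 0.272 (0.141 to 0.475) with both, and 1 and 5 UMIs in the other classes. Mertk was at 8.12 (7.30 to 9) with both and 7.41 (7.05 to 7.77) with Mrc1 only, which overlap, against 3.24 (2.50 to 4.14) with Il1b only and 1.48 (1.29 to 1.68) with neither. Among cells with Mrc1, its own level was 9.79 (8.89 to 10.8) with Il1b and 19.3 (18.7 to 19.9) without, and lower with Il1b in each run, at 9.34 against 20.1 in the first and 10.3 against 15.9 in the second. Fcgr4 was at 0.431 (0.259 to 0.673) with both and 0.103 (0.0655 to 0.155) with Mrc1 only.

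Pairs of receptors in the same Ptprc cell were more frequent than the product of their shares. Of the 35 pairs with at least 5 cells expected from that product, of 45 in all, 33 had more, and over the 35 the ratio ran from 0.863 (Sirpa with Tlr2) to 2.35 (Fcgr3 with Siglec1), with a median of 1.35. Fcgr2b and Fcgr3, the inhibitory and an activating IgG receptor, were together in 50 cells where 29.7 were expected, 1.68 times, and 46.7% of the cells with Fcgr3 also had Fcgr2b. Fcgr3 and its gamma chain gene Fcer1g were together in 32 cells against 19.8, Fcgr1 and Fcgr3 in 12 against 6.43, and Siglec1 and Mertk in 40 against 21.4. Fcgr1 with Fcgr2b (12 against 11.1) was close to the product. The cells with T and NK genes and those that met another gate were not taken out of these counts. No such count was made over pairs of other genes, so the excess cannot be read as particular to the receptors. Of the transcripts of Fcgr3, 10.2% of all stretches of 50 bases also occur in Fcgr2b, and 4.48% of those of Fcgr2b in Fcgr3, so reads from these stretches cannot be told apart, while neither shared any with Fcgr1 or Fcgr4. Within the last 500 bases of the transcripts these shares were 0% for Fcgr3 and 2.25% for Fcgr2b. The part of shared reads in the pairs was not tested.

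The clusters gave a grouping that used neither the receptors nor Ptprc. Cluster 8, with 608 cells, held 79.1% of the Ptprc cells, and 94.2% of its cells had Ptprc. Its leading genes were Kynu, Ifi214, Sirpb1a, Gm10521 and Slamf7, and it stays unnamed since only 2 macrophage markers are listed. Among the clusters at resolution 0.5 every receptor had its highest level here: Mrc1 13.5, Mertk 6.28, Sirpa 2.50, Fcgr2b 2.39, Fcer1g 1.32, Fcgr3 1.28, Siglec1 0.552, Fcgr1 0.447, Tlr2 0.256 and Fcgr4 0.196. At resolution 1.0, Tlr2 was at 0.436 (0.160 to 0.948, 6 UMIs) in a cluster of 21 cells and at 0.257 (0.206 to 0.316) in the cluster that holds most Ptprc cells. Cluster 11, of 63 cells led by the mitotic genes Bub1, Iqgap3 and Nuf2 and with Ptprc in 25.4%, came next for Mrc1 (4.21), Fcer1g (0.498), Fcgr2b (0.364), Fcgr3 (0.326), Fcgr1 (0.0957) and Siglec1 (0.0574). Mertk was next highest in cluster 12, of 10 cells, at 3.09, then at 2.27 in cluster 10, led by Pax3.

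**Figure D4:**
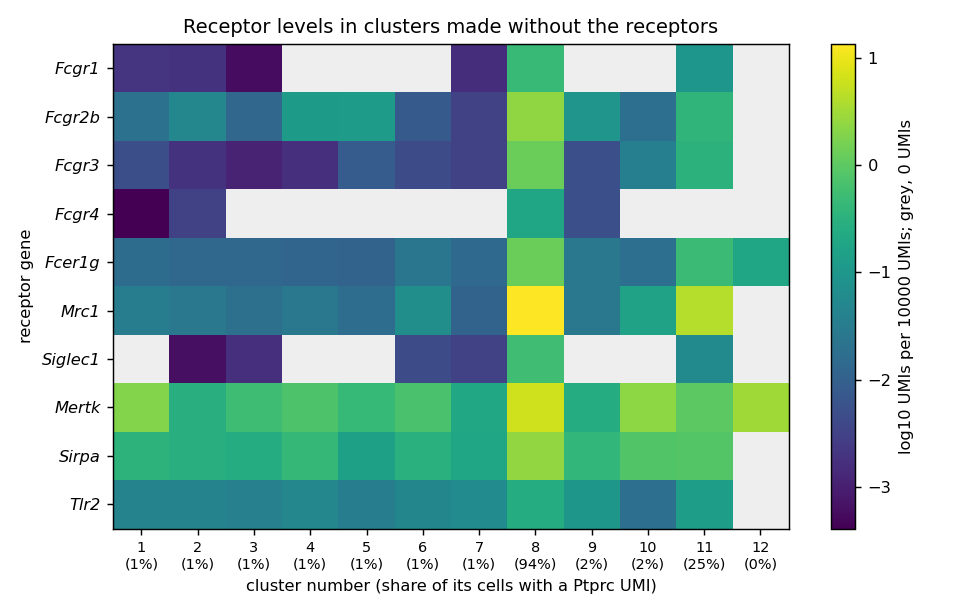
Level of each receptor (rows) in each of 12 clusters (columns, with the share of cells that had Ptprc) as log10 of UMIs per 10000 UMIs, grey where there were 0 UMIs. Cluster 8 is the brightest column for every receptor, and the Mertk and Sirpa rows stay bright across the other clusters, except that Sirpa had 0 UMIs in cluster 12.

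The Ptprc cells outside cluster 8, 151 in number, had lower receptor levels in spite of a higher median of 6399 UMIs per cell (5395 inside). Mrc1 was at 2.55 (2.26 to 2.87) there and 13.3 (12.9 to 13.7) inside, Fcgr2b at 0.281 (0.190 to 0.402) and 2.43 (2.26 to 2.60), and Fcgr4 had 0 UMIs in the 151 cells and 68 inside. Of these 151 cells 72.2% had a single Ptprc UMI, 44.4% were also endothelial and 22.5% also fibroblasts by the gates, against 9.77%, 16.8% and 6.98% inside. Conversely, 35 cells of cluster 8 had no Ptprc UMI, with a median of 2918 UMIs per cell, and they carried the receptors too. Mrc1 at 18.4 (16.3 to 20.7) and Siglec1 at 1.54 (0.978 to 2.31) lay above the Ptprc cells of the cluster, Mertk at 7.31 (6 to 8.82) and Fcgr3 at 1.27 (0.767 to 1.99) overlapped with them, and Sirpa at 1.27 (0.767 to 1.99) lay below them. In the remaining 15624 cells without Ptprc, Mrc1 was at 0.0231, Fcgr3 at 0.00325, Fcgr1 at 0.000975 and Siglec1 at 0.000867, while Mertk was at 0.875 and Sirpa at 0.296.

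Levels in Ptprc cells differed between the barcode runs, which the labels do not explain. From the first run to the second, the levels of Mrc1 were 11.9 (11.5 to 12.3) and 7.46 (6.99 to 7.96), those of Mertk 5.58 (5.33 to 5.85) and 4.20 (3.85 to 4.58), and those of Siglec1 0.466 (0.394 to 0.547) and 0.211 (0.138 to 0.310). Fcer1g went from 0.850 (0.752 to 0.957) to 1.67 (1.45 to 1.91), Fcgr3 from 0.897 (0.796 to 1.01) to 1.32 (1.12 to 1.54), Fcgr2b from 1.78 (1.63 to 1.93) to 2.26 (2 to 2.54) and Tlr2 from 0.169 (0.127 to 0.220) to 0.350 (0.253 to 0.471). For Fcgr1, Fcgr4 and Sirpa the intervals overlapped. Il1b was at 0.409 (0.342 to 0.486) and 3.65 (3.32 to 4). The run with more Il1b was also the one with more Fcer1g, Fcgr3, Tlr2 and Fcgr2b and less Mrc1 and Siglec1. The split of cells by Il1b was not matched throughout. Mertk was higher in cells with Il1b but lower in that run. Fcgr1, also higher in cells with Il1b, was at 0.400 (0.334 to 0.476) and 0.260 (0.178 to 0.367) by run. A link between run and Il1b was not tested. Run and mouse, library or cell preparation cannot be told apart. Each receptor stayed at least 2-fold higher in Ptprc cells than in either other group within each run wherever the other group had a UMI, with the lowest ratio 2.99 (Mertk against fibroblasts, first run).

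**Figure D5:**
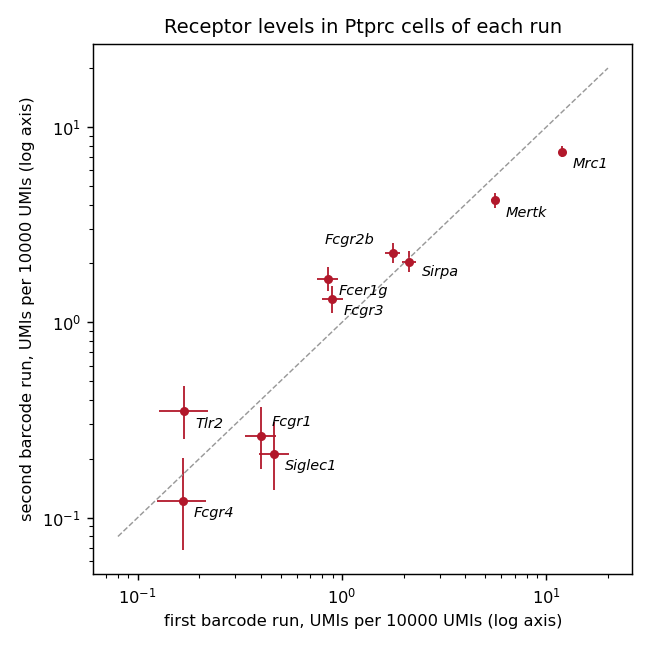
Level of each receptor in Ptprc cells of the first (horizontal, log axis) and the second barcode run (vertical, log axis) in UMIs per 10000 UMIs; bars are 95% exact Poisson intervals and the dashed line marks equal levels. Mrc1, Mertk and Siglec1 lie below the line and Fcer1g, Fcgr3, Fcgr2b and Tlr2 above it.

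Genes of the same pathways were listed in part. Among those of Fc receptor signalling, Inpp5d, the phosphatase SHIP1 that acts below the inhibitory receptor, was at least 2-fold higher in Ptprc cells than in both other groups, at 9.94 (9.65 to 10.2) against 0.174 in fibroblasts and 0.928 in endothelial cells. Src, Vav2, Plcg1, Arpc2 and Arpc5 met that size against at most 1 group. Over all genes with at least 50 UMIs in the 3 groups together (2667), 11% were higher in Ptprc cells than in both other groups by that size. All 4 genes of the SIRP family were higher, Sirpb1a at 0.126 and Sirpb1b and Sirpb1c at 0.0926 and 0.0948, with ratios of at least 46.4 for these last 3 against either group, far above those of Sirpa. Their transcripts shared no stretch of 50 bases with those of Sirpa. Unlike Sirpa, Sirpb1a was lower with Mrc1, 0.0674, than without, 0.216.

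Of the 9 genes of the SLAM family, surface receptors of leukocytes, 8 were at least 2-fold higher than in both groups, beside 11% of all genes. The other, Slamf1, had under 50 UMIs over the groups. Cd84 was at 2.85, Cd48 at 0.907, Cd244a at 0.722 and Slamf7 at 0.720. None of the 5 listed genes of dying cell uptake (Tyro3, Elmo2, Gulp1, Itgav and Thbs1) was higher than in both groups by 2-fold: Itgav was at 2.26 against 1.32 and 1.56, and Gulp1 at 1.45 against 8.43 in fibroblasts and 1.22 in endothelial cells. Tyro3, a kinase of the same family as Mertk, was at 0.0587 against 0.0761 and 0.0721. Of 4 other scavenger and pattern receptors, Tlr5 was higher, at 0.350 against 0.0330 and 0.00799, and its level was 0.566 with Mrc1 and 0.0227 without, while Marco, Cd5l and Lrp2 had under 50 UMIs. So did all 5 listed genes of other Fc receptors, among them Fcrl1 with 23 UMIs in Ptprc cells. Neutrophil genes were at or near 0 in Ptprc cells, with 0 UMIs of S100a8 and S100a9 and 1 of Cxcr2.

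Over all 16383 cells, the genes whose log values were most like the log of the summed receptors included Ptprc (Pearson r 0.474), Arhgap15 (0.469), Ctss (0.443), Arhgap30 (0.412), Spi1 (0.402), Cd84 (0.395), Tnfrsf11a (0.381) and P2ry12 (0.359). The cells share libraries, and these values describe the matrix only. Single receptors differed in their closest genes. Arhgap15 (0.665) and Fcrls (0.637) were the closest to Mrc1 and, in the other order, to Siglec1 (0.408 for Fcrls, 0.376 for Arhgap15). The interferon-inducible genes Ifi206 (0.409), Ifi213 (0.390) and Ifi209 (0.363) were closest to Fcgr1, and Ifi213 (0.271) led for Fcgr4. Mertk, Sirpa and Tlr2 reached no value above 0.278, 0.309 and 0.132 with any gene.

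An antisense gene overlaps Fcgr2b (Gm38204, over 3175 bases) and Mertk (Gm14011, over 2435 bases), and whether reads were counted by strand is not given in the sources used here, so their reads may include those of the antisense partner.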

How the data were processed

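Mitral valves were profiled with the 10x Genomics 3′ v3 kit. According to the methods, the authors kept cells with 200 to 5000 genes and under 10% mitochondrial reads in Seurat 4.3.0, and the submitters' processing notes name Cell Ranger 7.1.0 and mm10. Each value the authors deposited is the natural log of 1 plus a gene's UMIs scaled to 10000 per cell, in 1 matrix of 3265 genes, of which 1 had empty values and was left out. Genes not in the matrix were not analysed here. UMIs and totals were recovered as whole numbers within 0.02 for 100.0% of values, taking the lowest value above 0 in a cell as 1 UMI. The listed genes held 15.7% of the UMIs in the median cell. The scripts were tested on simulated data.

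The members and lists were chosen with earlier results of these data known. No count model was fitted, since 1 pooled sample has no replicates. Levels are UMIs summed over a group per 10000, with 95% exact Poisson intervals, and ratios have exact conditional intervals. Shares were taken at 2000 UMIs per cell with exact binomial intervals and their differences with Newcombe intervals. PCR duplicates are collapsed by UMI, and all intervals cover counting error only. Ratios were counted over genes with at least 50 UMIs, shares over genes in at least 20 cells. Clusters came from 2000 variable genes without the receptors, Ptprc, Il1b, Prrx1, Col3a1, Dpt and Egfl7, with 50 principal components, 15 neighbours and Leiden resolution 0.5 (scanpy 1.11.5, igraph 0.11.9, random seed 1). No doublet caller was run, and cells that met more than 1 gate were left out in an alternative. The text names all receptors and gate genes, Il1b, up to 4 genes of each pathway list with the highest level in Ptprc cells, the 10 genes most like the summed receptors and the 3 most like a receptor, in at least 50 cells, and a few genes that this rule names are not reported here. Marker lists of other cell types are given as sums or counts. The leading genes of clusters, the use of Ctss and Spi1 beside Fcgr2b and Mertk, and single marker genes at 0 were chosen after values were seen. Python 3.11.15, numpy 2.4.6, scipy 1.17.1 and pandas 2.3.3 were used.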

Additional observations from a re-analysis of the deposited data

How the results depend on the processing

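No paired analysis was possible because barcodes were tied to no replicate or mouse, so no replicate could be left out either. The counts of receptors higher in Ptprc cells stayed at 10 of 10 under the alternatives run, except 9 against fibroblasts at a ratio of at least 4. The share of all genes that reach a ratio of 4 was not counted, so the counts at that size have no background beside them. The share of Ptprc cells with a receptor, 75.8%, was 83.7% with at least 2 Ptprc UMIs, 83.4% with each cell in 1 group only, 85.4% with no thinning, 67.1% when thinned to 1000 UMIs, 65.5% with receptors other than Sirpa, Mertk and Tlr2, and, in alternatives chosen after seeing the data, 85.9% in the Ptprc cells of cluster 8 and 79.7% in those without a UMI of the T and NK genes. The difference with Mrc1, 40.5 points, was 30.7 with at least 2 Ptprc UMIs, 32.9 with no thinning and 28.8 in cluster 8. The difference with Il1b, 22.8 points, was 32.9 in the second barcode run, 13.5 with no thinning and 12.1 in cluster 8. The summed level of the 10 receptors in Ptprc cells, 23.1, was 27.2 with at least 2 Ptprc UMIs, 31.6 with each cell in 1 group only, 24.4 and 19.9 in the first and second runs, and 23.6 without cells that had both fibroblast genes and Egfl7. The cause was not tested for any of these, apart from thinning, which lowers shares by construction. At 2000 UMIs, Fcgr4, Tlr2, Fcgr1 and Siglec1 were seen in too few cells to call a cell without them negative.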
